A study of Bos grunniens with 6 samples.

Results

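Genes named for sperm or testis were followed in the m6A data of cattle-yak testis. Members were taken by symbol from the list of m6A peaks: every gene with a peak whose symbol begins with SPATA, SPAG, TEX, TSSK, TSGA, ODF, SPACA, SPEF, SPEM, ACR, ZPBP, CATSPER or ROPN, or is *STK33* or *PXT1*. The rule found 37 gene identifiers with 32 symbols and 65 peaks, of 8986 identifiers and 16186 peaks in the whole list. Cattle-yaks are hybrids of yak and cattle. Testes of 3 healthy cattle-yaks aged 5 years, obtained by castration and named TES5, TES6 and TES7 (names of animals, not ages or times), each gave 1 library of RNA pulled down with an antibody against m6A (IP) and 1 of the same RNA before the pull-down (input), 6 libraries in all. There was 1 genotype and 1 condition, with no treatment. The authors called as peaks the stretches with more IP reads than the input would give. They deposited 1 list for the group, with no score and no value per animal, so no spread between animals can be given for a peak. Expression was deposited as FPKM, the fragments of a gene divided by its length and by library size, for the input libraries. FPKM values keep no read numbers, so the depth behind a value is not known from them. With 3 animals of 1 condition, no test between groups was possible.

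Spermatogenesis runs from spermatogonia through the meiotic spermatocytes to haploid spermatids, which build the acrosome, a vesicle of enzymes over the sperm head, and the flagellum. Many SPATA, SPAG, TEX, ODF and TSSK genes were named after transcripts or proteins found in testis or sperm. The shared name does not stand for a shared function, since some act in meiosis, some in the acrosome or tail, and some in cells of many tissues. m6A is a methyl mark on adenosines of mRNA that is written and removed by enzymes and bound by reader proteins. Male hybrids of yak and cattle are known to be sterile. The study states that their spermatogenesis stops after the stage of primary spermatocytes. Its own sections of cattle-yak testis showed mainly a single layer of spermatogonia, with few spermatocytes.

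A symbol did not always name the gene it stood beside. *TEX30* was listed for 4 identifiers whose starts lie within 81495 bp on chromosome 15, *SPACA6* for 2 within 89995 bp on chromosome 20 and *TSSK1B* for 2 within 6236 bp on chromosome 16. The functional terms deposited for 5 of these 8 identifiers belong to another kind of protein. Of the *TEX30* identifiers, ENSBGRG00000003799 carried terms of a MAPK cascade kinase, ENSBGRG00000003936 the pathway nucleotide excision repair, and ENSBGRG00000025245 glucosyltransferase activity in the endoplasmic reticulum. The second *SPACA6* identifier, ENSBGRG00000018974, carried terms of tRNA thiolation, and the second *TSSK1B* identifier, ENSBGRG00000019056, terms of mRNA splicing. The single *TEX11* identifier, ENSBGRG00000007926, carried terms of tight junctions and synaptic transmission. In RefSeq's order of genes on the assembly Bosgru_T2T1.0, *POGLUT2*, a glucosyltransferase gene, and *ERCC5*, a nucleotide excision repair gene, lie close to *TEX30*, *ESS2*, a splicing-related gene, close to *TSSK1B*, and *DLG3*, a synaptic scaffold gene, beside *TEX11*. Among the 4 RefSeq genes on each side, none named as a MAPK cascade kinase stood near *TEX30* and none named for tRNA thiolation near *SPACA6*. Repeated symbols were common in the whole list, where 768 symbols stood on more than 1 identifier with a peak and 739 of them (96.2%) had all identifiers on 1 chromosome within 1 Mb. These 6 identifiers meet the name rule and stay in the counts of members. Results are also given for the 31 identifiers without them, a division made after the terms were seen. A further 8 members carried a term of RNA-directed DNA polymerase, common in the whole list, and were not set apart for it. *SPAG1*, listed with no ontology term and only the pathway lysine degradation, was not set apart either. All 37 identifiers had a row in the FPKM table.

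The members lay on 19 chromosomes. Chromosomes 15 and 19 held 5 each, and 4 of those on chromosome 15 share the symbol *TEX30*. Of the 37, 21 carried a single peak (56.8%, 95% Wilson interval 40.9% to 71.3%, for counting error only), against 54.0% of the other 8949 identifiers with a peak. A further 9 carried 2 peaks, 5 carried 3, and 2 carried 4 or more. Without the 6 identifiers above, 53 peaks remained on 31 identifiers, and 61.3% of these had a single peak.

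*TEX15*, which acts in the repair of meiotic DNA breaks and in the silencing of transposons in germ cells, had the most peaks of the members. Its listed transcript (ENSBGRG00000024980) runs from 27989014 to 28002379 on chromosome 28, plus strand, in the yak build LU_Bosgru_v3.0, which all positions here refer to, and its 7 peaks ran from 250 bp to 4625 bp in width. Of these, 5 were annotated to exon 2 of 11, 1 to exon 7 and 1 to exon 11, the last. The gaps between neighbouring peaks were between 98 bp and 1174 bp, and 4 of them were under 200 bp, so that the peaks together covered 9927 of the 12548 bp from the first start to the last end. *TEX14*, needed for the bridges that join dividing germ cells, came next with 4 peaks (ENSBGRG00000024451, chromosome 19 from 60764818 to 60893277, plus strand). They were annotated to exons 13, 15, 17 and 27 of 33 and lay in the last part of the span, from 70.7% to 99.6% of the way from its 5' end. The members with 3 peaks were *CATSPERG*, *ODF2*, *SPAG9* and the *TEX30* identifiers with kinase and with excision repair terms.

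The width of a peak is its span on the genome, introns included. The narrowest member peak measured 193 bp and the widest 61247 bp. The median member width, 1963 bp (quartiles 649 and 7288 bp), exceeded that of the other 16121 peaks, 1019 bp (quartiles 299 and 4908 bp). Narrow peaks, up to 1000 bp, were 24 of the 65 (36.9%, 26.2% to 49.1%), and their share among the others was 49.8% (49.1% to 50.6%). The intervals meet at their ends, and peaks of 1 gene share their source, so the shares were not tested. The widest member peak lay in *SPAG9*, which encodes a scaffold of JNK signalling, on chromosome 19 from 31312322 to 31373568, and was annotated to exon 1 of 30. *SPATA16*, a protein of the Golgi and of the forming acrosome, had a 51311 bp peak of the 3' UTR class on chromosome 1 (102754619 to 102805929) and, at its other end, a 26329 bp peak classed as 5' UTR (102507167 to 102533495). The next widest were a peak of 40996 bp in *STK33*, 38878 bp in *SPAG16* and 29059 bp in *SPAG1*. The transcripts that these 5 genes are listed with span between 95588 bp (*SPAG1*) and 1152439 bp (*SPAG16*). Without the genome annotation, the exonic part of these spans was not measured.

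By the class that ChIPseeker, the authors' annotation program, gave each peak, the exon class held 52 of the 65 member peaks (80.0%, 68.7% to 87.9%). The 3' UTR class held 8 (12.3%, 6.37% to 22.5%), and 5 were classed as 5' UTR (7.69%, 3.33% to 16.8%). The other peaks stood at 70.3%, 20.9% and 8.82%. Each member interval holds the value of the other peaks, so a difference in class was not detectable with 65 peaks. The 8 peaks of the 3' UTR class belonged to *SPATA16*, *SPATA24*, *SPATA6*, *STK33*, *TEX264*, *TEX30* (ENSBGRG00000025210 and ENSBGRG00000003799) and the second *TSSK1B* identifier. The 5 of the 5' UTR class belonged to *CATSPERG*, *SPAG7*, *SPATA16* and, with 2, the *TEX30* identifier with excision repair terms.

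Within the exon class, 6 of 52 member peaks (11.5%, 5.40% to 23.0%) were annotated to the last exon and 10 (19.2%, 10.8% to 31.9%) to the first, where 18.3% and 18.4% of the other peaks stood. With peaks spread evenly over the exons of each transcript, irrespective of length, the last exon would hold 17.0% of the member peaks. The midpoint of 60 member peaks lay within the span of the listed transcripts. With the span cut into 3 equal parts, 17 fell in the part at the 5' end, 16 in the middle and 27 (45.0%, 33.1% to 57.5%) in the part at the 3' end, which held 55.4% of the other peaks. The plot of peak positions shows single peaks near the 3' end in *TEX12*, which encodes a component of the synaptonemal complex, and in *TEX29*. *SPATA5*, which encodes an ATPase of ribosome maturation, and *SPAG16* had their only peak near the 5' end.

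**Figure D1:**
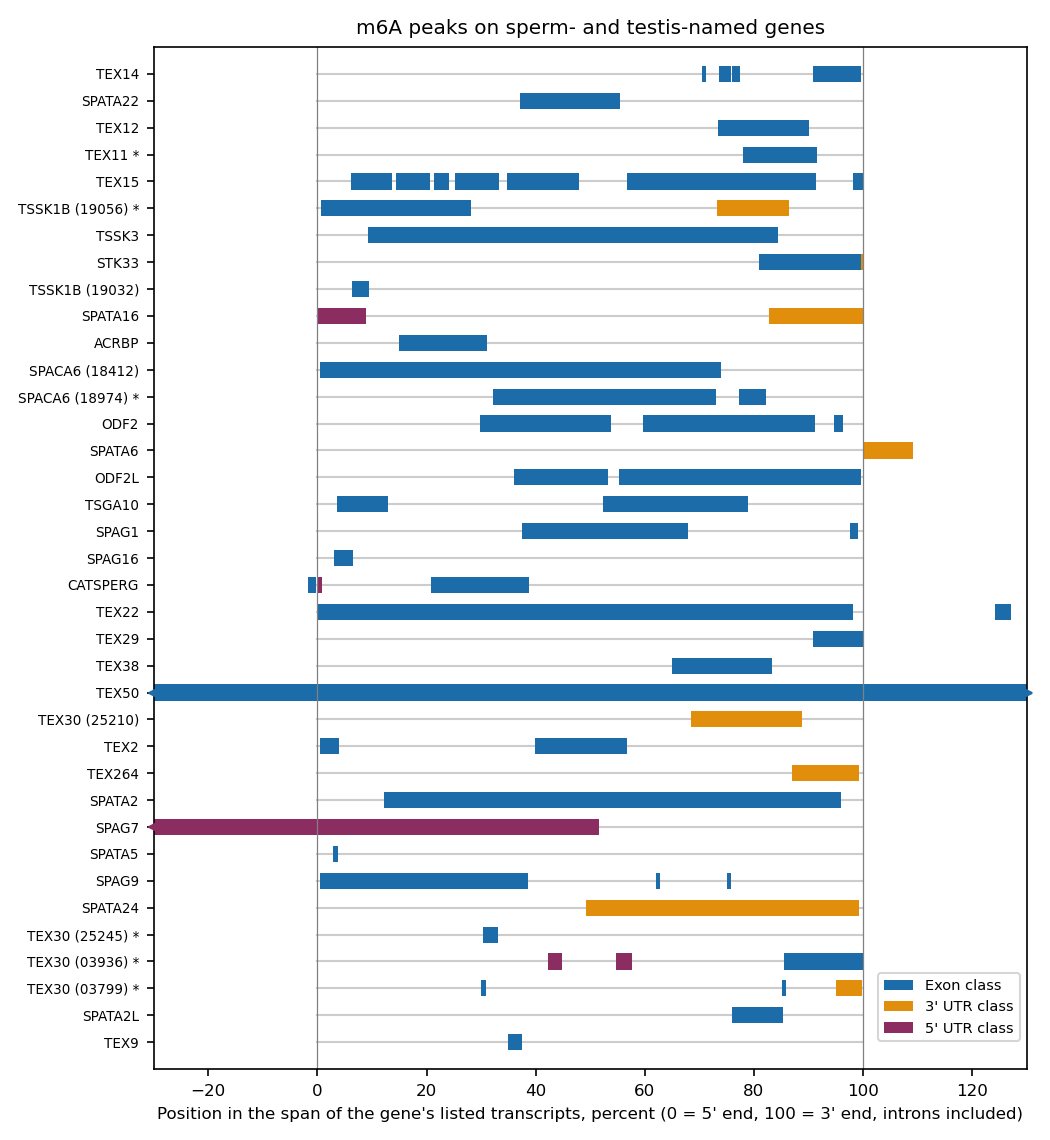
Position of the 65 listed m6A peaks on the 37 identifiers, as a percentage of the span of each gene's listed transcripts from the 5' end (0) to the 3' end (100), introns included, coloured by annotation class. Symbols on more than 1 identifier carry the last digits of the identifier, an asterisk marks identifiers with terms of another function, arrows mark peaks that run past the axis, and very narrow peaks are drawn at a minimum width. *TEX15* carries 7 peaks along its span, and the *TEX50* peak covers all of its short transcript.

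A few of these peaks touch their gene little or not at all. The 14739 bp peak listed for *SPATA6*, a protein of the head-tail junction of sperm, shares only 8 bp with the end of its transcript. The 17520 bp peak listed for *TEX50* contains the whole 1429 bp transcript and also overlaps the transcript of an identifier labelled *PRDX6*. The peak of *SPAG7*, which encodes a nuclear protein, is 4801 bp wide on a transcript of 3087 bp, with 1593 bp shared. *CATSPERG* and *TEX22* each had 1 peak outside the listed transcript, in an exon of a transcript with no gene identifier. One peak of the *TEX30* identifier with kinase terms was annotated to an exon of another identifier, ENSBGRG00000003841. In all, the exon given belonged to another identifier or transcript for 3 of the 52 (5.77%), against 4.83% of the other exon class peaks. Whether such peaks belong to the member named was not tested.

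To see which sperm- and testis-named genes had no peak, RefSeq's protein-coding symbols of the yak were matched to the list by name. The name rule covers 107 RefSeq symbols, of which 31 had a row in the peak list (29.0%, 21.2% to 38.2%), against 7403 of 16350 other named symbols (45.3%, 44.5% to 46.0%). The member symbol *SPATA5* was not among the RefSeq symbols. A symbol counts here only where both sources spell it alike, and the symbols may be misplaced as described above, so the shares describe the lists and were not tested. The symbols were grouped into role lists chosen with earlier results of these data known. All 5 symbols of the list for meiosis and early germ cells had a row (*TEX12*, *TEX14*, *TEX15*, *SPATA22* and *TEX11*, whose row carries terms of another gene). Of the 6 testis kinases, 3 had one, and of 20 symbols for the flagellum and axoneme 6 had one. Of 15 acrosome and zona-binding symbols 3 had a row, and of 9 subunits of CatSper, the calcium channel of the sperm tail, only *CATSPERG*. Symbols with no row in the list used here include *ACR*, *ZPBP* and *ZPBP2* of the acrosome, *ODF1* and *ODF4* of the outer dense fibres, *ROPN1* and *ROPN1L* of the fibrous sheath, *SPEF2* and *SPAG6* of the axoneme, *TSSK2*, *TSSK4* and *TSSK6*, and the pore-forming *CATSPER1* to *CATSPER4*. *PXT1* and *SPATA18*, 2 genes of the study's own expression panel, also had no row. The deposited files pair symbols with identifiers only for genes with a peak, and the FPKM of these genes was not read here. A symbol with no row shows neither that the gene was not expressed nor that it had no peak: ENSBGRG00000004424, with 3 peaks on chromosome 11, is labelled *KCNK10* in the list. The study's own table of peaks per gene gives this identifier the symbol *SPATA7*.

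**Figure D2:**
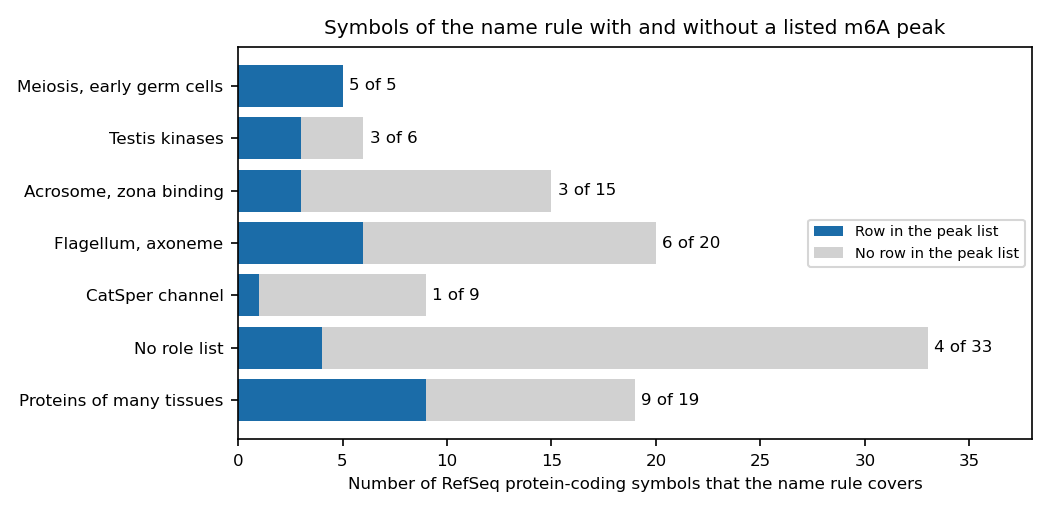
Number of RefSeq protein-coding symbols covered by the name rule, by role list, split into those with and without a row in the m6A peak list. All 5 symbols of the meiosis list have a row, among them *TEX11*, whose row carries terms of another gene. Of the CatSper subunits 1 of 9 has a row, and of the acrosome symbols 3 of 15. The lists were chosen with earlier results of these data known.

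Expression was compared between the 3 input libraries. Deposited FPKM summed to between 280940 and 302365 per library, and 11906 to 12147 of 20953 genes reached an FPKM of 1. All 3 libraries reached it for 32 of the 37 members (86.5%), 7597 of the 8738 other genes with a peak and an FPKM row (86.9%) and 54.4% of all genes. The mean FPKM of the members over the 3 animals had a median of 5.17 and quartiles of 2.56 and 11.4, below the median of 7.38 for the other genes with a peak. Of the members, 10 had a mean of at least 10 and 18 a mean under 5. The highest were *ODF2*, a *TEX30* identifier (ENSBGRG00000025210), *TEX2*, *TEX264* and *SPATA2*, and the lowest were *TEX50*, *SPAG16*, *TEX38* and the identifiers labelled *SPACA6* (ENSBGRG00000018974) and *TSSK1B* (ENSBGRG00000019032).

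Most members had their highest FPKM in TES5 and their lowest in TES7. Among the 34 members with a mean FPKM of at least 1, 30 were higher in TES5 than in TES7, against 50.3% of the 12144 genes with the same minimum. The exceptions were *TEX15* and the identifiers labelled *TEX11*, *SPACA6* (ENSBGRG00000018974) and *TEX30* (ENSBGRG00000003799). TES5 was the highest animal in 28 of the 34, against 40.1% of these genes, and TES7 the lowest in 24, against 31.3%. In 22 of the 34 the order was TES5, TES6, TES7 from high to low, against 21.2% of these genes, and in 2 it was the reverse, against 19.6%. A difference of at least 1.5 times on the scale of FPKM + 1, TES5 over TES7, was found in 16 of the 34, against 7.91%, and in the opposite direction in 0 of 34, against 3.08%. The median of log2(FPKM + 1) in TES5 minus TES7 was 0.51 over the members (quartiles 0.16 and 0.75), -0.03 over 7891 other genes with a peak and 0.00 over all 12144. Without the 6 identifiers set apart above, which hold 3 of the 4 exceptions, 27 of 28 were higher in TES5 than in TES7, 19 of 28 had the full order, and the median was 0.65. Leaving out also the 8 with the polymerase term, 20 of 21 were higher in TES5 and 15 had the full order. *SPAG1*, listed only with the pathway lysine degradation, stays among the 28 and the 21. It was higher in TES5 than in TES7 and lacked the full order. The pattern was noticed after the values had been seen, and it sets single animals of 1 group against each other, so no test was made. In whole testis tissue, fewer cells of a type and less RNA per cell cannot be told apart.

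**Figure D3:**
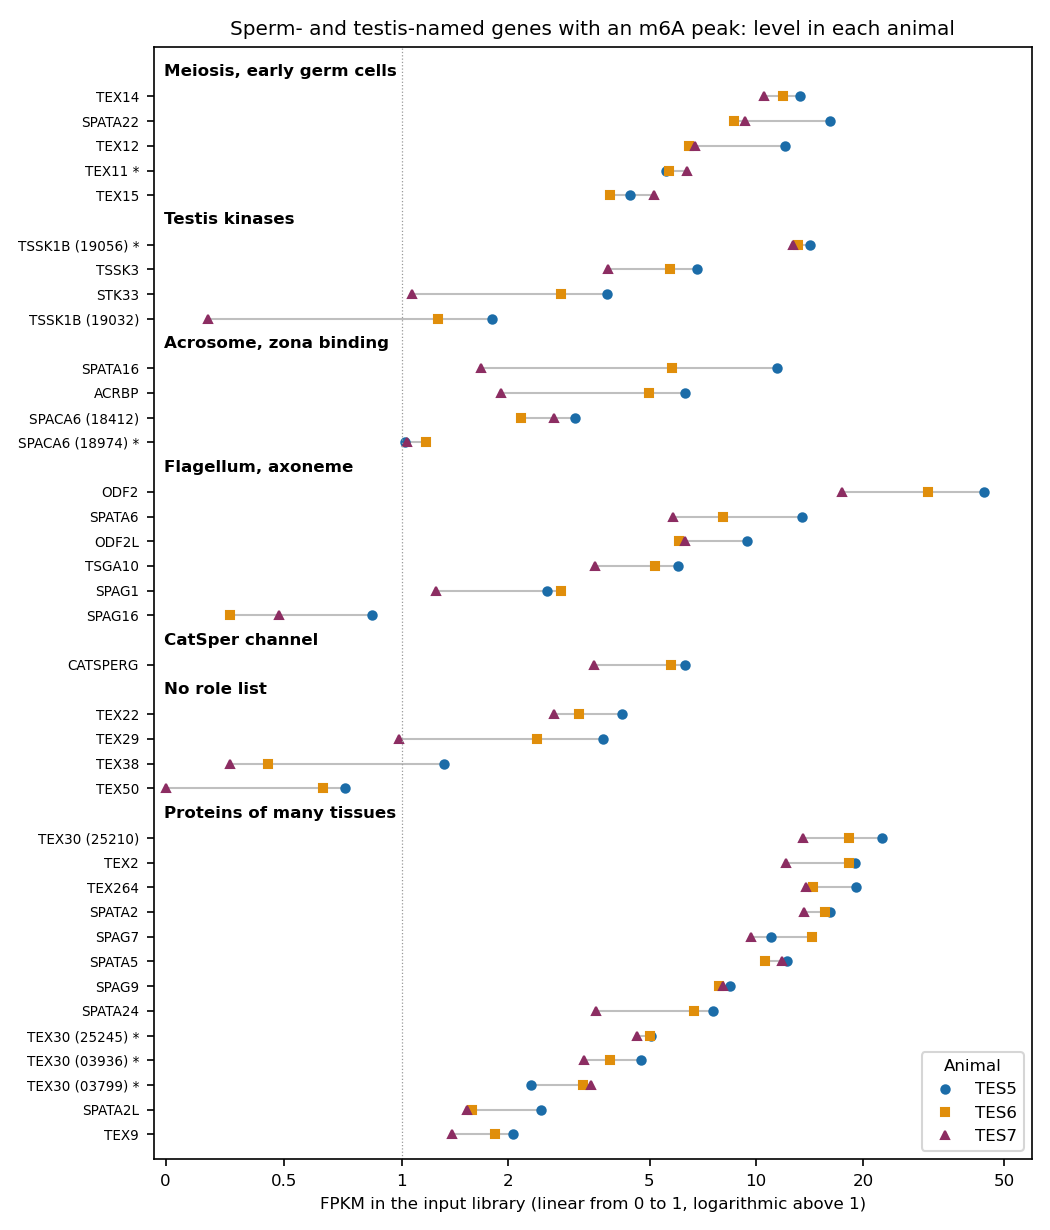
FPKM of each of the 37 identifiers in the input libraries of TES5 (circles), TES6 (squares) and TES7 (triangles), by role, on an axis that is linear from 0 to 1 and logarithmic above 1. Grey lines join the lowest and highest animal, and an asterisk marks identifiers with terms of another function. TES5 is the highest animal in 28 of the 34 with a mean FPKM of at least 1, against 40.1% of all genes with this minimum.

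The spread between animals was large for these genes. The coefficient of variation over the 3 animals had a median of 24.1% over the 34 members, against 11.9% over the other genes with a peak. Members also stood at lower levels, with a median mean FPKM of 5.17 over all 37, against 7.38. The spread was not compared at matched levels. Without TES7 the median over members was 14.7%, without TES5 it was 17.6%, and without TES6 it was 31.2%. Across the 36 members above 0 in every library, log2(FPKM + 1) in TES5 and TES7 had the lowest Pearson's r of the 3 pairs of animals, 0.89, while TES6 stood at 0.96 with TES5 and 0.93 with TES7, as a description across genes within a pair of animals.

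The genes of the acrosome held *SPATA16*, which had the largest coefficient of variation (77.9%) of the 34 members with a mean FPKM of at least 1. Its FPKM was 11.5 in TES5, 5.79 in TES6 and 1.68 in TES7, a mean of 6.32 ± 4.92 (SD, n = 3) and a ratio of 6.85 between TES5 and TES7. Without TES5 its mean was 3.73. *ACRBP*, which binds the precursor of the protease acrosin, was at 6.29, 4.98 and 1.91, a mean of 4.39 ± 2.25 (SD, n = 3). Both genes thus stood highest in TES5 and lowest in TES7. *SPACA6*, a sperm membrane protein needed for fusion with the egg, did not: the identifier with the fusion term (ENSBGRG00000018412) was at 3.09, 2.17 and 2.69. Its neighbour with tRNA terms was near 1 in every animal, at 1.02, 1.17 and 1.03. *ACRBP* had a single 1333 bp peak on chromosome 5 (110844832 to 110846164), in exon 4 of 10, and *SPACA6* an 8357 bp peak on chromosome 20 (57358757 to 57367113), annotated to exon 1 of 8.

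All 4 identifiers in the list of testis kinases had the full order from TES5 to TES7, where 21.2% of all genes compared had it. Among the 4 is the *TSSK1B* identifier whose terms are those of mRNA splicing. *TSSK3*, a serine/threonine kinase of spermatids, was at 6.81, 5.73 and 3.81 FPKM in TES5, TES6 and TES7, and *STK33*, a kinase needed for building the sperm tail, at 3.79, 2.82 and 1.07. The *TSSK1B* identifier with kinase and spermatid terms (ENSBGRG00000019032) was at 1.79, 1.27 and 0.179, the last a level under 1 of unknown read number. The difference between TES5 and TES7 was 0.70 for *TSSK3*, 1.21 for *STK33* and 1.24 for this *TSSK1B* identifier on the log2(FPKM + 1) scale. Beside them, the *TSSK1B* identifier with splicing terms (ENSBGRG00000019056) was at 14.2, 13.1 and 12.7, a mean of 13.3 ± 0.780 (SD, n = 3). The transcripts of the 2 identifiers lie on opposite strands. The first carried 1 peak of 197 bp in exon 1 of 2 (chromosome 16, 80465028 to 80465224), and the second a peak of 994 bp in the 3' UTR class and one of 2083 bp in exon 1 of 8. *TSSK3* carried 1 peak of 1139 bp, in exon 1 of 2 (chromosome 2, 16807119 to 16808257), which spans most of its 1518 bp transcript. The 40996 bp peak of *STK33* was annotated to exon 11 of 14 and ended next to a 348 bp peak of the 3' UTR class (chromosome 13, 41558702 to 41559049).

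Among the genes of the flagellum and axoneme, *ODF2* had the highest level of all members. It encodes the main protein of the outer dense fibres and is also a centriole protein in many cells. Its FPKM in the 3 animals, TES5 first, was 44.0, 30.6 and 17.5, a mean of 30.7 ± 13.3 (SD, n = 3). Its 3 peaks, all in the exon class (ENSBGRG00000010746, chromosome 9 from 7793787 to 7825659), were 7644 bp, 10068 bp and 548 bp wide. *SPATA6* had the same order, with 13.4, 8.08 and 5.84, and so did *TSGA10*, a protein of the sperm tail, with 6.03, 5.20 and 3.51. *ODF2L*, a relative of *ODF2* found at the base of cilia, was higher in TES5 alone, with 9.45, 6.04 and 6.28. *ODF2L* had peaks of 7128 bp in exon 5 and 18248 bp in exon 8 of 14, and *TSGA10* peaks of 6058 bp in exon 2 and 17040 bp in exon 10 of 17. *SPAG1*, which helps to assemble dynein arms, was low in TES7 alone, with 2.57, 2.81 and 1.25. *SPAG16*, a protein of the central pair of the axoneme, stayed under 1 in every animal, with 0.874, 0.274 and 0.479. *CATSPERG*, the gamma subunit of CatSper, was at 6.28, 5.74 and 3.48, a mean of 5.17 ± 1.48 (SD, n = 3). Its peaks were 1 of 6135 bp in exon 6 of 28, 1 of 251 bp in the 5' UTR class and the 549 bp peak outside the transcript.

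The genes of meiosis and early germ cells did not share 1 order of the animals. *SPATA22*, which works on single-stranded DNA in meiotic recombination, was at 16.2, 8.67 and 9.28 FPKM. *TEX12* was at 12.1, 6.45 and 6.72. Both were highest in TES5, and TES6 and TES7 lay close together. Each had a single peak, of 2857 bp in exon 4 of 7 for *SPATA22* (chromosome 19, 44268739 to 44271595) and of 909 bp in exon 5 of 6 for *TEX12* (chromosome 13, 65925631 to 65926539). *TEX14* was at 13.3, 11.9 and 10.5, a mean of 11.9 ± 1.41 (SD, n = 3), and *TEX15* at 4.42, 3.87 and 5.16, a mean of 4.48 ± 0.652 (SD, n = 3), so that *TEX15*, the member with the most peaks, was highest in TES7. The X-linked identifier labelled *TEX11*, a gene of meiotic crossing over, was at 5.57, 5.66 and 6.37, but its terms are those of another gene. Of the 5 identifiers in this list, 1 had the full order from TES5 to TES7, where 21.2% of all genes compared had it. In 3 of the 5, TES5 was higher than TES7, against 50.3% of those genes. The full order was found in 3 of 5 for the flagellum, 2 of 4 for the acrosome and 4 of 4 for the kinases. These counts include the identifiers labelled *TEX11*, *SPACA6* and *TSSK1B* whose terms are those of another gene. With so few identifiers the lists were not compared by a test.

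Proteins of many tissues made up the largest list, with 13 identifiers. Here 9 had the full order, where 21.2% of all genes compared had it. The median of log2(FPKM + 1) in TES5 minus TES7 was 0.36, beside 0.32 for the meiosis list, 0.67 for the flagellum list, 0.74 for the acrosome list and 0.95 for the kinases, with no test between lists. These medians include the 6 identifiers with terms of another function, whose own differences ran from -0.41 to 0.42. The *TEX11* identifier was at -0.17 in the meiosis list. The *SPACA6* identifier with tRNA terms was at -0.01 and the *TSSK1B* identifier with splicing terms at 0.15. Within the list of proteins of many tissues, *SPATA24*, whose terms include spermatogenesis, had the largest difference. It was at 7.54, 6.66 and 3.54 FPKM in TES5, TES6 and TES7. The *TEX30* identifier with the hydrolase term (ENSBGRG00000025210) was at 22.7, 18.3 and 13.5, and *TEX2*, a lipid-binding protein of the endoplasmic reticulum, at 19.1, 18.3 and 12.1. *TEX264*, a receptor for the autophagy of endoplasmic reticulum, was at 19.1, 14.5 and 13.8, with TES6 and TES7 close together. *SPATA2*, an adaptor in signalling by tumor necrosis factor, varied little, at 16.1, 15.7 and 13.6, and so did *SPATA5* at 12.2, 10.6 and 11.8. *SPAG9* had the smallest coefficient of variation of the members, 3.56%, with 8.44, 7.86 and 8.08. *SPAG9* and *SPATA5* were higher in TES7 than in TES5 when the libraries were rescaled to the same sum of FPKM. *SPAG7* was highest in TES6, with 11.0, 14.3 and 9.65. *SPATA2L*, a relative of *SPATA2*, was at 2.47, 1.58 and 1.53, and *TEX9* at 2.06, 1.84 and 1.38. The *TEX30* identifiers with other terms were at 4.72, 3.87 and 3.28 (excision repair), at 5.05, 5.01 and 4.61 (glucosyltransferase) and at 2.32, 3.24 and 3.43 (kinase), the last of which was lowest in TES5.

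The other 4 members belonged to none of these lists. *TEX29* and *TEX22*, the 2 with a mean FPKM of at least 1, had the full order, where 21.2% of all genes compared had it. *TEX38* and *TEX50* had this order too, with a mean under the minimum of 1. *TEX29*, a membrane protein by its term, was at 3.70, 2.41 and 0.989 FPKM, and *TEX22*, with the term acrosomal vesicle, at 4.19, 3.17 and 2.69. *TEX38* was at 1.32, 0.435 and 0.275, and its mean of 0.676 was 0.355 without TES5. *TEX50* was at 0.761 and 0.665 in TES5 and TES6 and was listed at 0 in TES7.

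Markers of testis cell types were read beside these values, where the peak list pairs their symbol with 1 identifier. Markers of spermatocytes, the cells in meiosis, were found for 4 of 11, and their summed FPKM in TES5, TES6 and TES7 was 44.1, 30.7 and 33.5. The synaptonemal complex gene *SYCP1* was at 6.71, 4.76 and 4.85 and *MEIOB*, which encodes the partner of SPATA22, at 9.51, 5.10 and 6.48, so TES5 was the highest animal here too. The sum over 4 of 11 spermatogonial markers was highest in TES7, with 27.1, 28.6 and 35.1. *ZBTB16* (6.61, 8.76 and 11.2) and *KIT* (8.64, 9.23 and 12.2) had this order. *ETV5* was highest in TES5, at 11.3, 9.67 and 10.9, and *GFRA1* was under 1 in every animal and highest in TES6. The sum over 4 of 10 Sertoli cell markers was 77.0, 90.6 and 84.1, that over the 5 markers of peritubular myoid cells 364, 415 and 395, and that over 4 of 6 markers of endothelium and blood 13.4, 14.9 and 13.1. Of 6 Leydig cell markers, only *STAR* could be read, at 100.2, 108 and 112. None of the 13 spermatid markers, among them *PRM1*, *TNP1* and *ACRV1*, had a row in the peak list, so the level of spermatid RNA in the 3 testes could not be read from markers outside the members. The labelled tissue is testis. The Sertoli, Leydig and meiotic markers that could be read were all above 1 FPKM. Only genes with a peak could be read, and 86.9% of the other genes with a peak reached 1 FPKM in every library. These levels are therefore no check of the tissue. All 4 spermatocyte markers were higher in TES5 than in TES7. *MLH3* had the full order, at 3.46, 2.89 and 2.42, and the others were lowest in TES6. The part of these cell types in the differences of the members between animals was not tested.

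**Figure D4:**
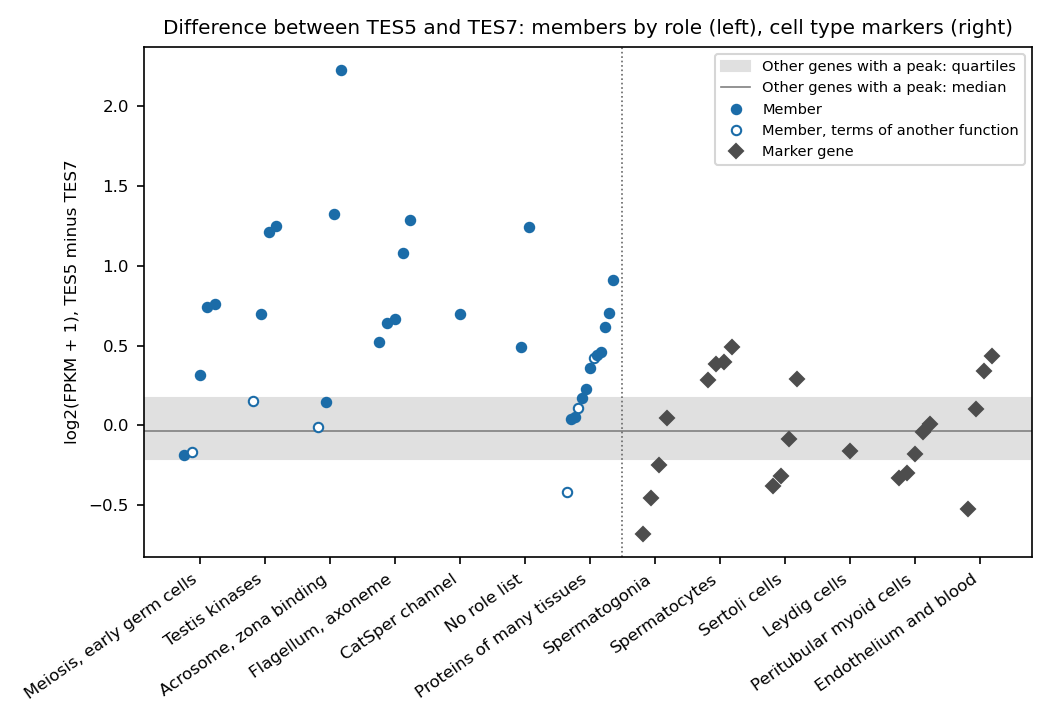
Difference of log2(FPKM + 1) between the input libraries of TES5 and TES7, each point 1 gene: members with a mean FPKM of at least 1 by role list (circles, open for identifiers with terms of another function) and cell type markers (diamonds). The grey band holds the quartiles (-0.21 to 0.17) and the line the median of the other 7891 genes with a peak. Some kinases, acrosome and flagellum members reach above 1, and so does *TEX29*, which is in no role list. The 4 spermatocyte markers lie between 0.29 and 0.49.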

How the data were processed

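Peaks had been called by the authors with MeTDiff from IP against input (fragment length 200, peak p-value cutoff 0.01, FDR 0.05, fold of at least 1.5) and annotated with ChIPseeker on LU_Bosgru_v3.0 (Ensembl release 99), after Trimmomatic, SortMeRNA and HISAT2 2.0.4 (version from the submitters' processing notes), with unique reads kept. FPKM values of the input libraries were computed and deposited by the authors, and the program is not given in the sources used here. Peak starts, ends and exon numbers were taken as deposited. The deposited gene ontology terms were read as labels.

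Peaks, classes and exons were counted, and shares were given Wilson 95% intervals, which cover counting error only. Means and SDs run over 3 animals. A pseudocount of 1 and a minimum mean FPKM of 1 were used, and differences on that scale understate those of low genes. A further 211 identifiers with a peak, none of them a member, were not matched to an FPKM row. Read counts are not kept in FPKM, so no count model was run. Nothing in the labels says how the animals are related, and p-values were not computed. Members, lists and alternatives were chosen with earlier results of these data known. Every member is named: by most peaks, highest or lowest level, largest spread, widest peak, or role list. Procedures were tested on simulated data. The scripts ran in Python 3.11.15 with pandas 2.3.3 and numpy 2.4.6, figures were drawn with matplotlib 3.10.9, and intervals came from SciPy 1.17.1.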

Additional observations from a re-analysis of the deposited data

How the results depend on the processing

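No paired analysis was possible because peaks were deposited once for the 3 animals together and FPKM for input libraries only, and no result comes from a test. Alternative values of the counts, shares and medians were set against the counting interval, the spread or 1.5 times the value reported. For the coefficient of variation the spread was that of the values with 1 animal left out, and for the correlation that of the pairs of animals. For the median log2 difference between TES5 and TES7 the limit was a fixed fraction of the value. Of 68 alternative values, 65 stayed within these limits. Some of the 68 values could not fall. With 1 animal left out, the full order and the expression in every library were asked of the remaining animals only. Neither count can then be lower than the value reported. The share of exon class member peaks in the last exon was 33.3% among peaks of at most 1000 bp and 4.55% in transcripts with at least 3 exons, against 11.5%. The first subset holds narrow peaks only and the second leaves out short transcripts, and the cause was not tested. The median coefficient of variation ran from 14.7% to 31.2% with 1 animal left out. Of 185 alternative means of single members, 182 lay within 1.5 times the mean of all 3 animals. The others were *SPATA16* (3.73 against 6.32) and *TEX38* (0.355 against 0.676) without TES5, and *TEX50* (0.713 against 0.475) without TES7, where it is listed at 0. The count of members with the full order from TES5 to TES7 was 19 with libraries rescaled to the same sum (17.6% of all genes then), 22 with the median ratio, and 20 among members at 1 FPKM or more in all 3 libraries. Merging member peaks within 100 bp left 61. These alternatives on the order of animals, and those without the 6 identifiers, were chosen after seeing the data. Depth is unknown, so levels under 1 FPKM carry no interval.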

Other observations

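The deposited gene ontology terms of 8 of the 34 members with any term (23.5%, 12.4% to 40.0%) named RNA-directed DNA polymerase activity, which transposons encode, against 16.2% (15.4% to 17.0%) of the other genes with a peak and a term. These members were *ODF2L*, *SPAG16*, *SPATA16*, *SPATA22*, *SPATA5*, *SPATA6*, *STK33* and *TEX9*. None of these proteins is known as a polymerase, and *SPATA16* and *SPATA22* carried no term of the acrosome or of meiosis. The genes were chosen after their terms were seen, and the origin of the terms was not tested.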
